A study of Mus musculus with 2 samples.

Results

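The T cell receptor signals through a chain of proteins, and 55 genes that encode them were followed in control and RV-Cre-transduced Th17 cells. The genes were taken by symbol from a list drawn up by function, of CD3 chains, kinases, adaptors, the calcium, PKC and Ras branches and negative regulators. The rule sets no measured threshold, although the list was made with earlier results of these data known. All 55 symbols were found, each on 1 of the 23282 gene rows. Naïve CD4 T cells from the spleens of *Fak* fl/fl mice had received either the control retrovirus (the empty vector MIEG3) or RV-Cre, a retrovirus that carries Cre recombinase. Cre cuts out the floxed part of *Fak*, whose symbol in the files is *Ptk2*. Both cultures carried the floxed allele, so the genotype label WT of the control library stands for the vector without Cre. Cells were stimulated through the receptor itself with anti-CD3ε at 10 μg/ml on the plate and anti-CD28 at 5 μg/ml in solution, and virus was added about a day after stimulation had begun. They were kept for 3 days with IL-6, TGFβ1, TNFα, IL-1β and antibodies to IFNγ and IL-4, and GFP+ cells were sorted. There was 1 library per condition, the number of mice behind each is not given, and a culture given Cre with *Fak* left intact was not analysed here. Effects of Cre and of the loss of *Fak* therefore cannot be told apart.

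By way of background, the antigen receptor has no enzyme of its own. Its CD3 and zeta chains carry tyrosine motifs that LCK phosphorylates and to which ZAP-70 then binds. ZAP-70 marks the adaptors LAT and SLP-76, on which PLCγ1 and VAV1 assemble. From there a calcium branch leads to calcineurin and NFAT, a diacylglycerol branch leads through RasGRP1 to MAP kinases and through PKCθ, BCL10 and MALT1 to NF-κB, and phosphatases, ubiquitin ligases and diacylglycerol kinases shut the signal down. FAK is itself a tyrosine kinase that Src-family kinases such as LCK and FYN can phosphorylate.

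QuantSeq libraries were made from 500 ng of total RNA, so that reads lie near the 3′ ends of transcripts and their number does not grow with transcript length. Counted reads summed to 13799264 (control) and 12305010 (RV-Cre). The 55 genes held 76514 reads (0.554%) and 98677 reads (0.802%) of these, with 16 to 8181 control reads and 15 to 18174 RV-Cre reads per gene. The ribosomal RNA gene *Rn45s* took 8.50% of control reads and 14.6% of RV-Cre reads. *Ptk2* had 110 control reads and 31 RV-Cre reads, a ratio of 0.318 (95% interval 0.206 to 0.478). Ratios throughout are RV-Cre over control after TMM scaling, which divides the counts by a size factor of 1.06 (control) or 0.941 (RV-Cre). Log2 ratios were taken after 1 was added to each normalized count. Each interval is a 95% Clopper-Pearson interval, computed from how a gene's reads divide between the libraries. It reflects counting error alone, with each read taken as independent, and says nothing of the spread between cultures, so no p-value is given. The cultures were T cells by their defining transcripts, with *Cd2*, *Cd5*, *Cd6*, *Cd28* and *Thy1* at 17691 control reads and 18554 RV-Cre reads together. Taken singly these markers were not level, with ratios of 1.91 for *Cd2*, 1.49 for *Thy1*, 1.20 for *Cd28*, 0.947 for *Cd6* and 0.504 for *Cd5*. None of them reached 2-fold. The Th17 cytokine genes *Il17a* and *Il17f* had 424 and 421 control reads, against 103 and 79 RV-Cre reads. The receptor constant region genes *Trac*, *Trbc1* and *Trbc2* were not analysed here. In bulk RNA, fewer cells of a type and less RNA per cell cannot be told apart.

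Most of the receptor pathway had a ratio slightly above 1, and a small number of its genes differed by 2-fold or more, in opposite directions. A gene was called at a difference of 2-fold or more, provided that its log2 normalized count reached 4 in either library, which held for all 55 genes. Of the 55, 8 genes were called higher in the RV-Cre library, namely *Cd3d*, *Cd3e*, *Ptprc*, *Skap1*, *Orai1*, *Prkcq*, *Cblb* and *Dgka*. Another 5 were called lower, namely *Tec*, *Sh2d1a*, *Map2k1*, *Ptpn2* and *Tnfaip3*. These shares, 14.5% and 9.09%, lie near those over all 12112 genes past the same minimum, of which 14.2% were called higher and 12.3% called lower. With that minimum raised to 8, where counts are larger, 7 of 45 pathway genes (15.6%) were called higher, beside 4.62% of all 6863 genes that passed. At that minimum 3 of the 45 (6.67%) were called lower, beside 9.73% of all. The median log2 ratio was 0.31 over the 55 genes and -0.01 over all genes, and 43 of the 55 (78.2%) had a ratio above 1, compared with 49.6% of all genes. Scaling to *Gapdh*, which itself had 956 and 634 reads, raised all ratios, and with it 15 of the 55 genes were called higher and 1 lower, beside 24.3% and 6.4% of all genes.

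**Figure D1:**
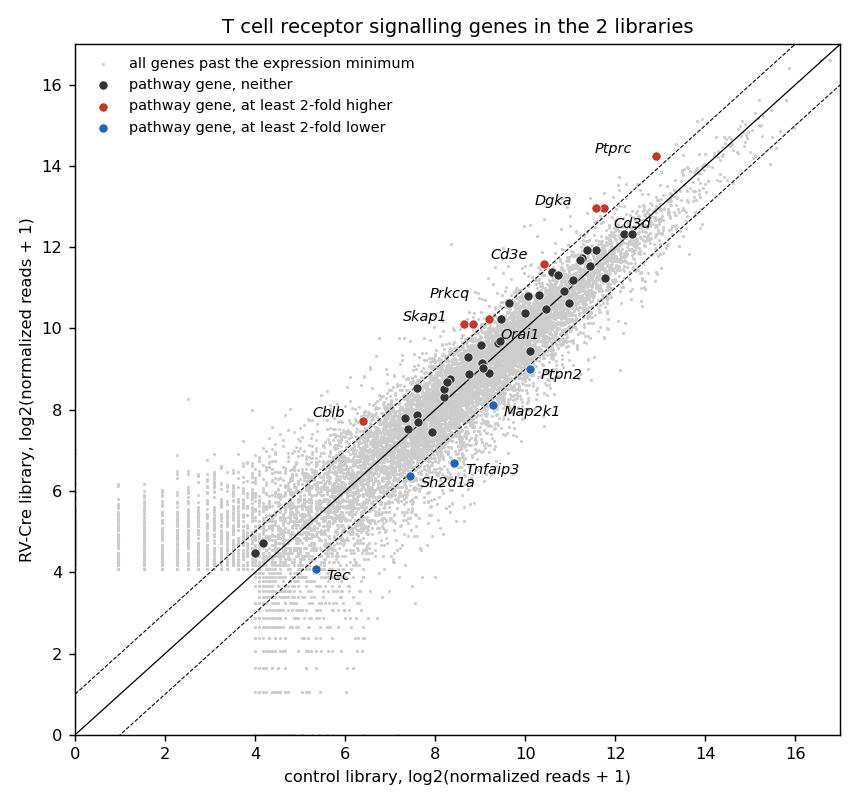
Normalized reads of each gene in the control library (horizontal axis, log2 scale) and the RV-Cre library (vertical axis, log2 scale). Grey points are the 12112 genes past the expression minimum, large points the 55 T cell receptor signalling genes, and dashed lines mark a 2-fold difference. The 8 red genes lie above the upper line and the 5 blue genes below the lower line, while the other 42 lie between the lines.

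Counting intervals showed the same lean towards higher values. The interval lay above 1 for 33 of the 55 genes, beside 36.7% of all genes, and below 1 for 10 of them, beside 38.1% of all genes. The width of an interval depends on the number of reads, so these shares follow depth as well as the size of a difference. For the other 12 genes no difference was detectable at this depth, among them *Cd4*, *Lat*, *Ptpn6* and *Bcl10*. Only 6 of the 8 higher genes had an interval that lay wholly above a ratio of 2, *Orai1* and *Cblb* being the exceptions. Of the 5 lower genes, *Tnfaip3* alone had an interval wholly below a ratio of 0.5.

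**Figure D2:**
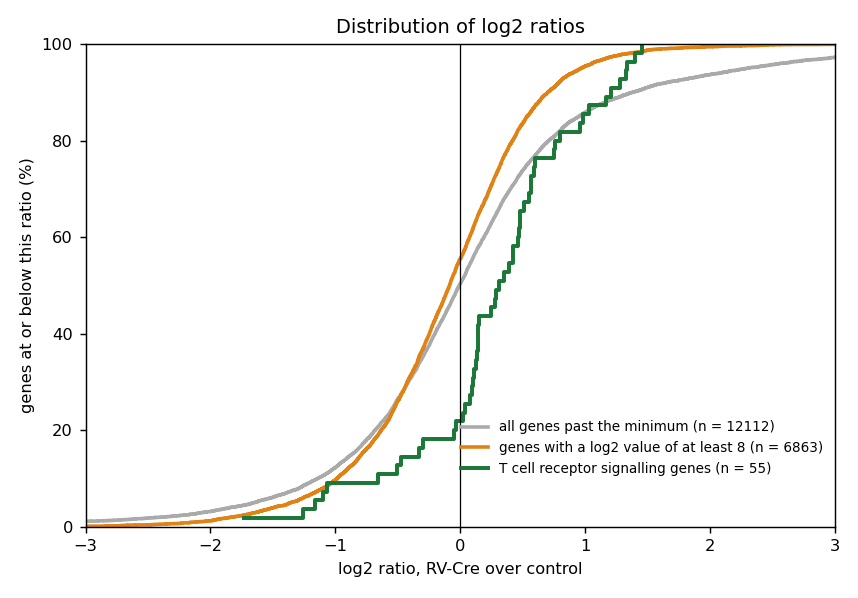
Share of genes (vertical axis, percent) at or below each log2 ratio of RV-Cre over control (horizontal axis), for all 12112 genes past the minimum (grey), the 6863 genes whose log2 count reaches 8 in either library (orange) and the 55 receptor signalling genes (green). The green curve crosses a log2 ratio of 0 at a lower share than the other curves, as 12 of the 55 genes had a ratio below 1.

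The receptor chains did not move as a block. *Cd3d*, which encodes CD3δ, had 3662 control reads and 7475 RV-Cre reads, a ratio of 2.30 (95% interval 2.21 to 2.40). *Cd3e* encodes CD3ε, the chain bound by the stimulating antibody, and had 1453 and 2884 reads, a ratio of 2.24 (2.10 to 2.39). *Cd3g*, which encodes CD3γ, had 713 and 750 reads, a ratio of 1.19 (1.07 to 1.32). The first pair was thus more than doubled, whereas their partner chain was close to level. *Cd247*, which encodes the zeta chain with most of the receptor's tyrosine motifs, had 2590 and 3198 reads, a ratio of 1.39 (1.32 to 1.47). The last 500 bases of *Cd247* overlap exons of *Pou2f1* on the other strand, which had 1080 and 656 reads, and how reads of such neighbours were divided is not stated. *Cd4*, the coreceptor that brings LCK to the complex, had 1489 and 1342 reads, a ratio of 1.02 (0.944 to 1.10).

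The difference within the CD3 cluster did not depend on how the libraries were scaled, since genes can be set against each other inside each library. Reads of *Cd3d* per read of *Cd3g* were 5.14 (control) and 9.97 (RV-Cre), a change of 1.94-fold (95% interval 1.74 to 2.17). The quotient of *Cd3d* to *Cd3e* was 2.52 and 2.59, a change of 1.03-fold whose interval (0.954 to 1.11) holds 1. *Cd3e* against *Cd4* changed from 0.976 to 2.15 reads per read. Such quotients were formed for 22 pairs of pathway genes that were picked after their values had been seen, and the quotients describe these libraries.

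The genes of the CD3 cluster lie side by side on mouse chromosome 9 (GRCm38, the same assembly as the mm10 of the submitters' notes). *Cd3g* spans 44969572 to 44980431 on the minus strand, *Cd3d* 44981769 to 44987052 on the plus strand and *Cd3e* 44998735 to 45009663 on the minus strand. *Cd3g* and *Cd3d* are transcribed away from each other. Their promoter windows, from 250 bases before to 50 bases after a RefSeq start site, are shown because neighbouring start sites gave different ratios. Capitals mark E-boxes (CANNTG, which reads the same on either strand), the motif of E proteins that are known for their part in T cell gene expression. The sequences are those of RefSeq on GRCm38.p6, written 5′ to 3′ on the gene's own strand.
Cd3g, chr9:44980382-44980681, minus strand: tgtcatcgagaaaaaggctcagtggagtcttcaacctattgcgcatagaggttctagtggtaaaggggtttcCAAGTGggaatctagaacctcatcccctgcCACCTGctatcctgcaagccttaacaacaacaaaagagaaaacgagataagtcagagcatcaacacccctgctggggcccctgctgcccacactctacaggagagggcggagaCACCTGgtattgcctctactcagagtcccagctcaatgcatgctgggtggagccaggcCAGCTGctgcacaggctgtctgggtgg
Cd3d, chr9:44981536-44981835, plus strand: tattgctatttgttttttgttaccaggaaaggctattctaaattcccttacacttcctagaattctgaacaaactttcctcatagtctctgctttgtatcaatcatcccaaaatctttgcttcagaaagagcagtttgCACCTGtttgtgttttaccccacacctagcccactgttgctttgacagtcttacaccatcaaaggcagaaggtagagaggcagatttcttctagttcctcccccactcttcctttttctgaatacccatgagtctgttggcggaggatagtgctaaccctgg
Cd3e, chr9:45009562-45009861, minus strand: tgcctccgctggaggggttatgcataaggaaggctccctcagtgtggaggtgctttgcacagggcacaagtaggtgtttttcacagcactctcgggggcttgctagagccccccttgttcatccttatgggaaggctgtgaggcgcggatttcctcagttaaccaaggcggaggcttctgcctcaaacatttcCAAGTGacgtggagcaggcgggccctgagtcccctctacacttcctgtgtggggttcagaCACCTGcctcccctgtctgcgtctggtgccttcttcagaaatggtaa
The *Cd3g* window held 4 E-boxes, that of *Cd3e* 2 and that of *Cd3d* 1, at -112 to -107 from the start site. E-boxes are common, with at least 1 in 72.3% of all 32851 windows and in 78.3% of the 60 windows found for 43 of the 55 genes. A match is a description of the letters and does not show that a factor binds.

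Among the Src-family kinases and their regulators, the kinases themselves were nearly level and the phosphatase was not. *Lck*, the kinase that starts the signal, had 4959 and 4839 reads, a ratio of 1.10 (1.06 to 1.15). *Fyn*, its relative, had 2224 and 2170 reads, also a ratio of 1.10 (1.04 to 1.17). *Src*, the founding member of the family, had only 18 and 24 reads, and its interval (0.783 to 2.94) allows a change either way. *Ptprc* encodes CD45, the phosphatase that removes the inhibitory phosphate from LCK, and had 8181 and 18174 reads, the most of the 55 genes in either library. Its ratio was 2.51 (2.44 to 2.57), larger than that of 89.5% of the 12112 genes. The opposing arm was raised less. *Csk*, the kinase that places the inhibitory phosphate, had 2522 and 3104 reads, a ratio of 1.39 (1.32 to 1.46), and *Pag1*, the membrane adaptor that holds CSK, had 169 and 207 reads, a ratio of 1.38 (1.12 to 1.70). Reads of *Ptprc* per read of *Csk* went from 3.24 to 5.86, a change of 1.81-fold (1.70 to 1.91).

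*Zap70*, the kinase that docks on phosphorylated CD3 and zeta chains, had 1640 and 2532 reads, a ratio of 1.74 (1.64 to 1.86), below the 2-fold line. Against *Lck* within each library it changed by 1.58-fold (1.47 to 1.70). The Tec-family kinases, which phosphorylate PLCγ1, went apart. *Txk* had 731 and 783 reads, a ratio of 1.21 (1.09 to 1.34). *Tec* had 42 and 15 reads, and its ratio of 0.403 has a wide interval (0.208 to 0.742). With 10 added to each normalized count in place of 1, fewer than the 5 genes were called lower, since *Tec* at -0.93 and *Sh2d1a* at -0.99 (log2 ratios) no longer reached 2-fold.

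**Figure D3:**
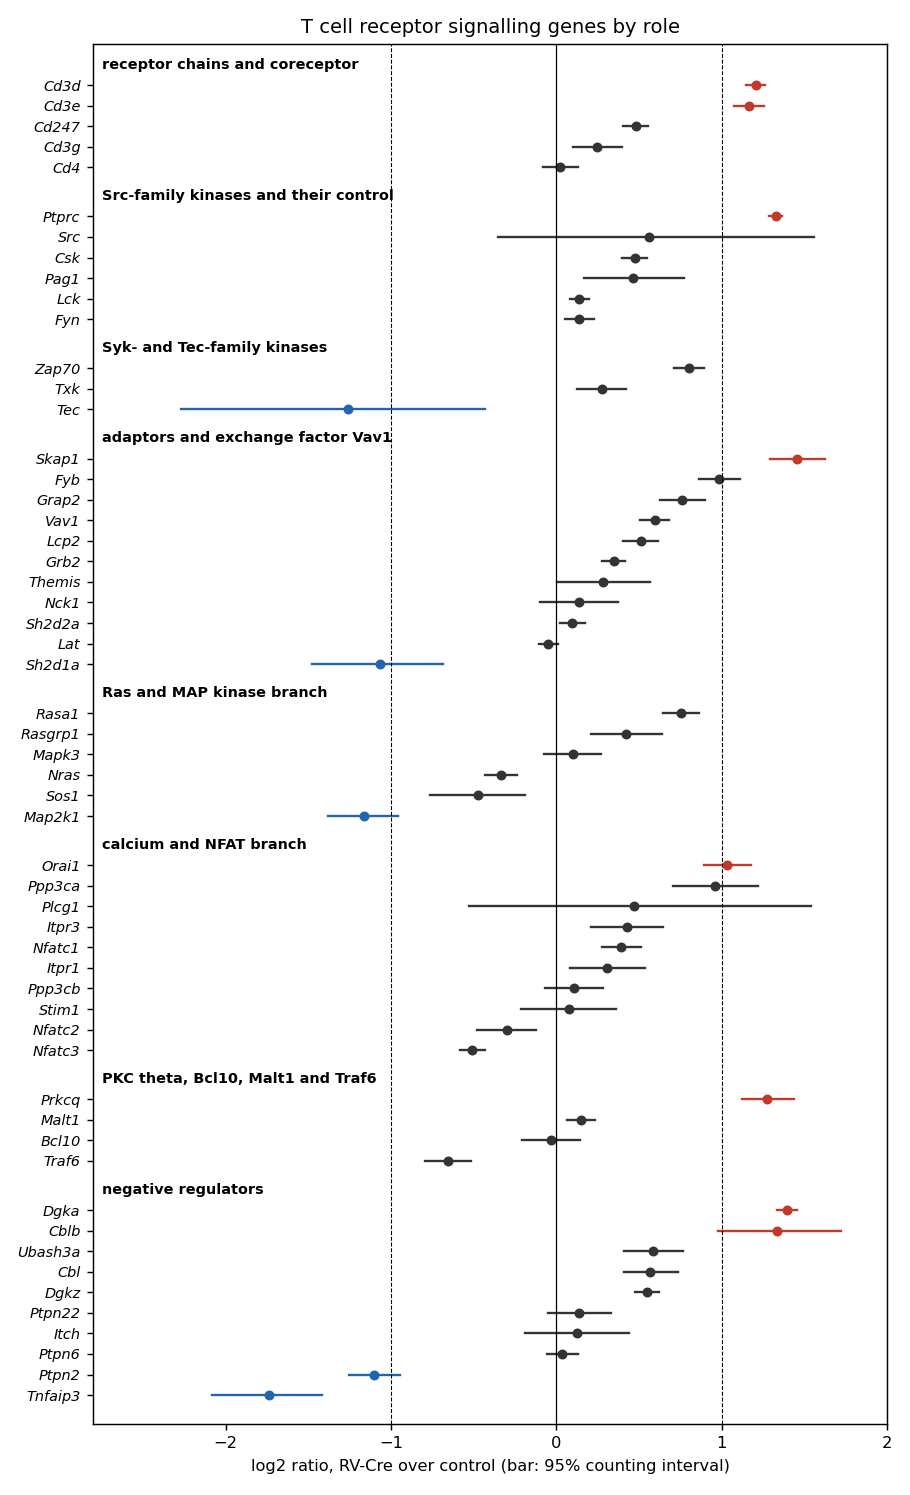
Log2 ratio of RV-Cre over control (horizontal axis) for each of the 55 genes, grouped by role and ordered within a role. Points are ratios, bars 95% counting intervals, and dashed lines mark a 2-fold difference, with red genes at least 2-fold higher and blue genes at least 2-fold lower. All 5 receptor chain genes and all 6 genes of the Src-family group lie to the right of 0, whereas the Ras and MAP kinase group is divided 3 to 3.

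The highest ratio of the 55 genes was that of an adaptor. *Skap1* encodes SKAP55, which links the receptor to integrin adhesion together with ADAP. It had 424 and 1030 reads, a ratio of 2.74 (2.45 to 3.08) and a log2 ratio of 1.45. *Fyb*, which encodes ADAP itself, had 843 and 1477 reads, a ratio of 1.98 (1.82 to 2.15), just under the line at a log2 ratio of 0.98. The 2 partners of this module thus both had more reads in RV-Cre cells, and *Skap1* per *Fyb* changed by 1.39-fold (1.20 to 1.60). Under 4 of the 6 other scalings, *Fyb* was past 2-fold. The core adaptors followed at smaller ratios. *Grap2*, which encodes GADS, the bridge between LAT and SLP-76, had 747 and 1122 reads and a ratio of 1.70 (1.54 to 1.86). *Lcp2*, which encodes SLP-76, had 1349 and 1701 reads and a ratio of 1.42 (1.32 to 1.53). *Vav1*, an exchange factor for Rac that binds SLP-76, had 1803 and 2412 reads and a ratio of 1.51 (1.42 to 1.61). These 3 genes of the SLP-76 complex all had ratios above 1 by more than counting error. *Lat*, the membrane scaffold, was not, with 5605 and 4801 reads and a log2 ratio of -0.05 and an interval that holds a ratio of 1. Its sign depended on the scaling, turning positive under 4 of the 6 alternatives.

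Of the remaining adaptors, *Grb2*, which brings SOS1 to LAT, had 3239 and 3648 reads, a ratio of 1.27 (1.21 to 1.33). *Nck1*, an adaptor to the actin machinery, had 308 and 300 reads, a ratio of 1.10 (0.934 to 1.29). *Themis*, a regulator of SHP-1 at LAT complexes, had 204 and 220 reads, a ratio of 1.22 (1.00 to 1.48). None of these reached 1.5-fold. The SH2 adaptors with similar names differed. *Sh2d2a*, which encodes the LCK-binding adaptor TSAd, had 2959 and 2803 reads, a ratio of 1.07 (1.02 to 1.13). *Sh2d1a*, which encodes SAP, the partner of SLAM-family receptors and FYN, had 183 and 77 reads, a ratio of 0.475 (0.359 to 0.623). The last 500 bases of *Sh2d1a* overlap exons of *Tenm1* on the other strand, which had 10 and 64 reads. As for *Cd247*, strand use in counting is not stated, so these reads cannot be assigned with certainty.

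In the Ras and MAP kinase branch 3 genes had ratios below 1 and 3 above it. *Map2k1*, which encodes MEK1, had 661 and 261 reads, a ratio of 0.446 (0.385 to 0.515). *Mapk3*, which encodes its substrate ERK1, had 562 and 533 reads, a ratio of 1.07 (0.949 to 1.21), so that *Map2k1* per *Mapk3* changed by 0.416-fold (0.344 to 0.504). *Nras* had 2116 and 1488 reads, a ratio of 0.794 (0.742 to 0.848), and *Sos1*, a Ras exchange factor, had 259 and 165 reads, a ratio of 0.719 (0.588 to 0.877). Both were lower beyond counting error but within 2-fold. *Rasgrp1*, the exchange factor that diacylglycerol recruits, had 340 and 404 reads, a ratio of 1.34 (1.16 to 1.55). *Rasa1*, which switches Ras off, had 1127 and 1684 reads, a ratio of 1.69 (1.56 to 1.82). Reads of *Rasa1* per read of *Nras* went from 0.533 to 1.13, a change of 2.13-fold (1.92 to 2.35).

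In the calcium branch the channel gene was called higher, while its sensor and the IP3 receptor genes *Itpr1* and *Itpr3* had smaller ratios. *Orai1*, which encodes the pore of the calcium release-activated channel, had 623 and 1130 reads, a ratio of 2.05 (1.85 to 2.26). *Stim1*, the sensor in the endoplasmic reticulum that opens this channel, had 208 and 194 reads, a ratio of 1.05 (0.861 to 1.29). *Orai1* per *Stim1* went from 3.00 to 5.82, a change of 1.95-fold (1.55 to 2.44). Of the IP3 receptors, *Itpr1* had 312 and 342 reads with a ratio of 1.24 (1.06 to 1.45), and *Itpr3* had 326 and 388 reads with a ratio of 1.34 (1.16 to 1.56). *Plcg1*, the phospholipase that makes IP3, had only 16 and 20 reads, so its ratio of 1.41 (0.695 to 2.91) is not resolved, and under quantile normalization its log2 ratio was -0.08.

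Calcineurin and NFAT genes split by isoform. *Ppp3ca*, a catalytic calcineurin subunit, had 203 and 350 reads, a ratio of 1.95 (1.63 to 2.32), just under the line. *Ppp3cb*, the other catalytic subunit on the list, had 560 and 534 reads, a ratio of 1.08 (0.954 to 1.21). Their quotient changed by 1.81-fold (1.46 to 2.24). *Nfatc1*, the family member that receptor signalling itself induces, had 1084 and 1261 reads, a ratio of 1.31 (1.21 to 1.43). *Nfatc2* had 621 and 447 reads, a ratio of 0.812 (0.718 to 0.919), and *Nfatc3* had 3671 and 2286 reads, a ratio of 0.703 (0.667 to 0.741). The last 500 bases of *Nfatc3* overlap *Esrp2* on the other strand, which had 0 reads in both libraries. *Nfatc1* per *Nfatc3* changed by 1.87-fold (1.69 to 2.06). With scaling to *Gapdh*, *Nfatc2* turned positive, at a log2 ratio of 0.12, as did *Nras* at 0.08.

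The route from the receptor to NF-κB showed ratios of opposite sign along its length. *Prkcq* encodes PKCθ, the kinase that acts above BCL10 and MALT1 on this route, and had 486 and 1044 reads, a ratio of 2.42 (2.18 to 2.71). The next genes of the route were close to level. *Bcl10*, which encodes a filament-forming adaptor, had 570 and 494 reads, a ratio of 0.978 (0.865 to 1.11). *Malt1*, which encodes a protease that binds BCL10, had 2253 and 2216 reads, a ratio of 1.11 (1.05 to 1.18). *Traf6*, the ubiquitin ligase that *Malt1* recruits, had 1165 and 655 reads, a ratio of 0.635 (0.576 to 0.699). *Tnfaip3*, which encodes A20, a deubiquitinase that restrains this route and is itself a well-known NF-κB target gene, had 363 and 96 reads. Its ratio of 0.298 (0.236 to 0.375) was the lowest of the 55 genes, and 4.45% of the 12112 genes had a lower log2 ratio. Set against *Malt1* inside each library, *Prkcq* changed by 2.18-fold (1.93 to 2.47), *Traf6* by 0.572-fold (0.510 to 0.641) and *Tnfaip3* by 0.269-fold (0.211 to 0.340).

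*Tnfaip3* lies on chromosome 10, from 19000910 to 19015410 on the minus strand. Its promoter window is shown because it carries the letters of the NF-κB motif, a pathway that the study examined. Capitals mark matches, on either strand, to the κB consensus and to a shorter form, GGAANTTCC, which was added after the sequence had been seen.
Tnfaip3, chr10:19015361-19015660, minus strand: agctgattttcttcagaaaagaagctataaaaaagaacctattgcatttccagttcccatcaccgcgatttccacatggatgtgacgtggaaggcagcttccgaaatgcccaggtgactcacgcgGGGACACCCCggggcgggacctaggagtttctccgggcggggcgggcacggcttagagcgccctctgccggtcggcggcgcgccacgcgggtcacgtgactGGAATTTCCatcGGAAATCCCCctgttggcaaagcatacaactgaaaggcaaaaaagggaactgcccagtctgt
There were 2 matches to the consensus, at -125 to -116 and at -12 to -3 from the start site, and 1 match to the shorter form at -24 to -16, which overlaps neither of them. The consensus was found in 8.46% of all 32851 windows and the shorter form in 0.928%. *Tnfaip3* alone of the 43 pathway genes with a window held the shorter form. That match was fixed in advance, since the form was added after the sequence had been seen. The consensus was held by 4 of the 43 genes (9.3%), namely *Bcl10*, *Itpr3*, *Src* and *Tnfaip3*, and by 6.67% of their 60 windows. The 4 have ratios on either side of 1, and binding was not measured in these files.

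Negative regulators were divided as well, with *Dgka* and *Cblb* called higher, *Ptpn2* and *Tnfaip3* called lower and the other 6 of the group in between. *Dgka* encodes the diacylglycerol kinase α, which removes the messenger that RasGRP1 and PKCθ need, and had 3221 and 7512 reads, a ratio of 2.63 (2.53 to 2.74). Its last 500 bases overlap exons of *Pmel* on the other strand, a pigment cell gene listed at 2828 and 6855 reads. The counts of these neighbours may hold the same reads, so the value belongs to the pair. *Dgkz*, the zeta isoform, had 2832 and 3663 reads, a ratio of 1.46 (1.39 to 1.53), and *Dgka* per *Dgkz* changed by 1.80-fold (1.69 to 1.92). *Cblb*, a ubiquitin ligase that raises the threshold for activation, had 88 and 198 reads, a ratio of 2.54 (1.97 to 3.30). Its relative *Cbl* had 549 and 722 reads, a ratio of 1.48 (1.33 to 1.66). *Cblb* per *Cbl* changed by 1.71-fold (1.29 to 2.28). *Ubash3a*, which encodes STS-2, a suppressor of receptor signalling, had 446 and 594 reads, a log2 ratio of 0.59. *Itch*, a further ubiquitin ligase, had 177 and 171 reads, a ratio of 1.09 (0.878 to 1.35).

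The tyrosine phosphatases of the group had lower ratios than *Cblb* and *Cbl*. *Ptpn2*, which encodes TC-PTP, a phosphatase of LCK, FYN and STAT proteins, had 1174 and 485 reads, a ratio of 0.466 (0.419 to 0.519). *Ptpn22*, a phosphatase of LCK and ZAP-70, had 454 and 443 reads, a ratio of 1.10 (0.964 to 1.26). *Ptpn6*, which encodes SHP-1, had 1990 and 1809 reads, a ratio of 1.03 (0.962 to 1.09). *Ptpn2* per *Ptpn22* changed by 0.423-fold (0.357 to 0.503). Counted across all roles, 13 of the 55 genes are inhibitors of the signal, with *Csk*, *Pag1* and *Rasa1* among them. Their median log2 ratio was 0.47, with 2 called higher and 2 lower, while the other 42 genes had a median of 0.28, with 6 called higher and 3 lower. Over all 12112 genes past the minimum the median was -0.01, with 14.2% called higher and 12.3% lower. Genes that drive the signal and genes that restrain it were found in either direction, as were genes at large.

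**Figure D4:**
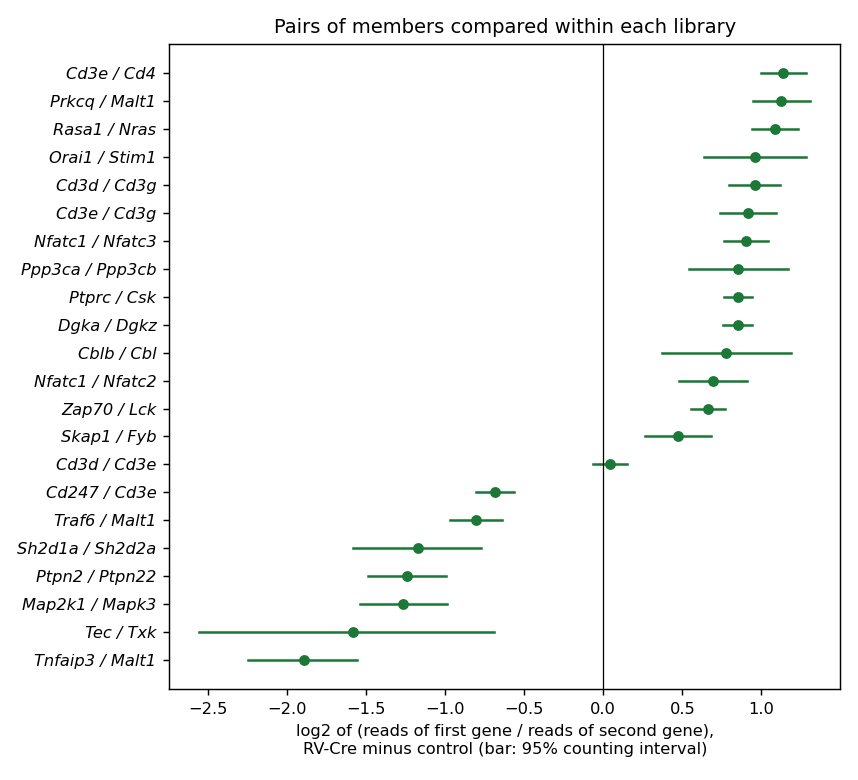
Change, from the control to the RV-Cre library, in the reads of 1 pathway gene per read of another (horizontal axis, log2 scale), for 22 pairs picked after their values had been seen. Points are the changes and bars exact 95% counting intervals of the odds ratio, which do not depend on the scaling of the libraries. The intervals of 21 pairs exclude 0, and that of *Cd3d* with *Cd3e* holds it.

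The other genes of the pathway, 77 further kinases, adaptors, phosphatases and calcium and Ras proteins, had 105640 control reads and 100590 RV-Cre reads together. Of the 73 past the expression minimum, 12 (16.4%) were called higher and 3 (4.11%) lower, with a median log2 ratio of 0.15. Of all 12112 genes past it, 14.2% were called higher and 12.3% lower, with a median of -0.01, so the share called higher was near that of all genes. The highest ratios belonged to genes of few reads. *Rnf128*, which encodes the anergy-linked ubiquitin ligase GRAIL, had 2 and 23 reads, and the docking protein gene *Gab2* had 5 and 19 reads. *Gab3*, a relative of *Gab2*, had 64 and 193 reads, a ratio of 3.40 (2.55 to 4.59). *Syk*, the B cell and myeloid relative of *Zap70*, had 15 and 76 reads, a ratio of 5.72 (3.26 to 10.7). *Lyn*, a Src-family gene, had 26 and 88 reads, a ratio of 3.82 (2.44 to 6.17). *Fgr*, of the same family, went the other way with 65 and 15 reads, a ratio of 0.260 (0.138 to 0.462). *Ptpn7*, a phosphatase of ERK, had 1509 and 617 reads, a ratio of 0.461 (0.419 to 0.507).

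Markers of other blood cells were counted as well, and each list held ratios on both sides of 1. The 7 B cell markers had 54 control reads and 117 RV-Cre reads together, with *Pax5* at 0 in both and *Blk* at 3 and 0. The 8 myeloid markers had 332 and 474 reads, with 1 called higher (*Csf1r*, 16 and 110 reads) and 1 called lower (*Lyz2*, 22 and 7 reads), and *Adgre1* at 0 and 8. The 7 markers of CD8 T and NK cells had 1202 and 1557 reads, of which *Cd8a* had 322 and 580 and *Cd8b1* 122 and 274, both called higher, and *Klrd1* had 240 and 57, called lower. *Klrb1c* had 12 and 0 reads, and *Ncr1* 0 and 8. *Cd3d*, *Cd3e* and *Ptprc* are expressed by CD8 T cells too, and the part of such cells in their ratios was not tested.

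**Figure D5:**
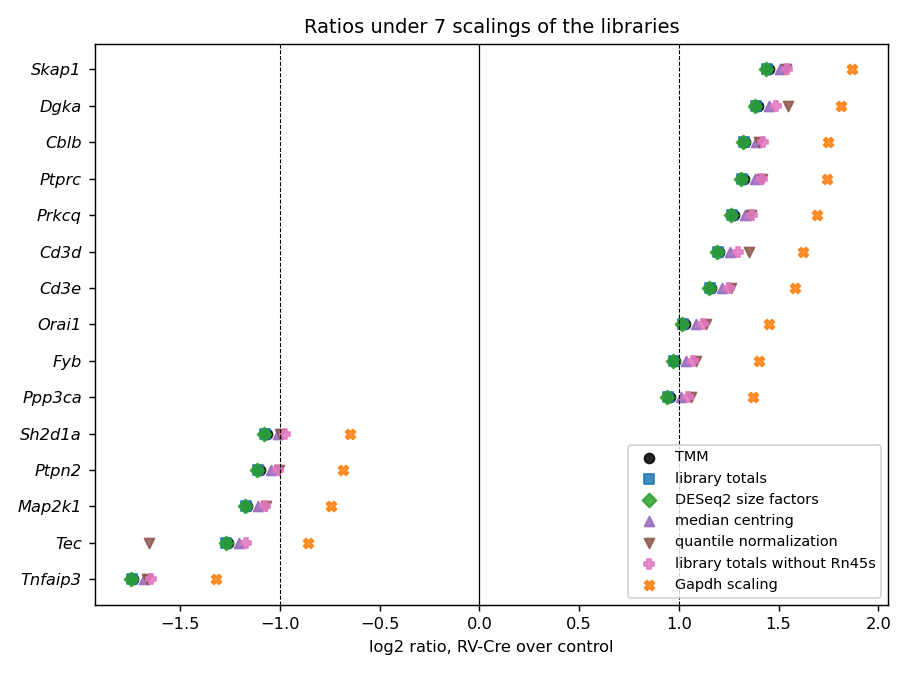
Log2 ratio of RV-Cre over control (horizontal axis) for the 8 genes called higher, the 5 called lower and *Fyb* and *Ppp3ca*, under TMM and 6 other scalings of the libraries (symbols). Dashed lines mark a 2-fold difference. Symbols other than the orange cross of *Gapdh* scaling mostly lie close together, with the widest exception for *Tec* under quantile normalization.

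Some calls depended on the scaling of the libraries. Apart from quantile normalization, each of the 6 other scalings in the plot of ratios by scaling shifts all genes by nearly the same amount, so the sign of a called gene is not put to a test there. *Tnfaip3* and the 8 higher genes kept their call under all 6, whereas *Tec*, *Map2k1* and *Ptpn2* lost theirs with *Gapdh* scaling, and *Sh2d1a* lost its call with *Gapdh* scaling and with library totals that leave out *Rn45s*. *Ppp3ca*, like *Fyb*, was past 2-fold under 4 of the 6. The sign changed under at least 1 scaling for 5 of the 55 genes, namely *Lat*, *Bcl10*, *Nras*, *Nfatc2* and *Plcg1*, none of them called.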

How the data were processed

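Naïve CD4 T cells transduced with control retrovirus or RV-Cre were sequenced as 1 QuantSeq 3′ library each. The authors deposited raw counts of reads per gene symbol, without normalization. The submitters' processing notes name bcl2fastq 2.20.0.422, Bowtie2, bedtools and build mm10, and the annotation, filters and strand setting are not given in the sources used here. Counts were scaled by TMM (edgeR 4.0.16, R 4.3.3) and compared as log2(normalized count + 1), with a minimum of 4 in at least 1 library and a threshold of 2-fold. With 1 library per condition no test was run. Exact 95% intervals, of ratios and of odds ratios between genes, were computed with scipy 1.17.1. Reads carry no molecular identifiers, so amplified copies of a molecule are counted as separate reads. The intervals take each read as independent and can therefore understate counting error. The procedure was tested on simulated data. Overlaps came from GENCODE M21 and promoter windows from RefSeq on GRCm38.p6. Of the 23282 rows, 79 share a symbol, none of them a gene named here.

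The 55 genes, their roles and the lists were chosen with earlier results of these data known. All 55 are named. Of the 77 other pathway genes, the 6 called furthest from 0 in each direction with an interval excluding 1 were to be named, and some of these are not reported here. Alternatives were library totals with and without *Rn45s*, scaling to *Gapdh*, quantile normalization (limma 3.58.1), size factors from DESeq2 1.42.0, centring on the median, pseudocounts of 0.1 and 10, other minimums, and folds of 1.5 and 3.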

Additional observations from a re-analysis of the deposited data

How the results depend on the processing

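No paired analysis was possible because there was 1 sample per arm, and no difference has a replicate check. Scaling by library totals, DESeq2 size factors, median centring, quantile normalization and totals without *Rn45s* left the number of pathway genes called higher at 8 to 10 and called lower at 4 to 5. Under these scalings 12.4% to 16.0% of all genes were called higher and 10.5% to 13.3% lower. Scaling to *Gapdh* moved the median over all genes by 0.44 on the log2 scale, and with it 15 genes were called higher, 1 lower, and the median of the 55 was 0.72, while 24.3% of all genes were called higher and 6.4% lower. With 10 added to each normalized count 3 genes were called lower (10.4% of all genes), and with a log2 minimum of 8, which leaves 45 of the genes, 3 were lower (9.73% of all genes). A threshold of 1.5-fold gave 15 higher and 6 lower (23.5% and 22.9% of all genes), and one of 3-fold gave 0 higher and 1 lower (8.32% and 5.52% of all genes). *Gapdh* scaling moved 52 of the 55 ratios beyond their counting interval, quantile normalization 20, totals without *Rn45s* 14 and median centring 1, and the other alternatives none. *Ptk2* was at -1.21 with *Gapdh* scaling. For these shifts the cause was not tested. Depth limits *Src*, *Plcg1* and *Tec*, each below 50 reads in either library.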

Other observations

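Several pathway genes outside the 55 had paralogs or partner subunits with unlike ratios. They were picked after their values were seen. Of the IP3 receptors, *Itpr2* had 877 control reads and 2256 RV-Cre reads, a ratio of 2.90 (95% interval 2.68 to 3.14), above those of *Itpr1* and *Itpr3*. *Ppp3cc*, the third catalytic calcineurin subunit, had 202 and 378 reads, a ratio of 2.11 (1.78 to 2.52). *Ppp3r1*, a regulatory subunit, had 3448 and 2757 reads, a ratio of 0.902 (0.858 to 0.949). *Pik3r1*, a regulatory subunit of PI3 kinase, had 930 and 1820 reads, a ratio of 2.21 (2.04 to 2.39). Of the catalytic subunit genes, *Pik3cd* was also above 1, with 3968 and 5605 reads and a ratio of 1.59 (1.53 to 1.66). *Pik3ca* had 869 and 679 reads, a ratio of 0.882 (0.796 to 0.976). *Cd5*, an inhibitory surface partner of the receptor that was used here as a T cell marker, had 3800 and 1696 reads, a ratio of 0.504 (0.475 to 0.534), just short of 2-fold, while *Cd6* had 2981 and 2502 reads.

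The 16 and 20 reads of *Plcg1* were few beside the 92 and 78 reads of its relative *Plcg2*, and the exons of *Plcg1* overlap those of *Zhx3* on the other strand, which had 47 and 15 reads. Whether reads of *Plcg1* were lost in counting was not tested.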
